A study of Mus musculus with 6 samples.

Results

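The 10 genes described here encode the machinery that loads peptides onto MHC class I molecules: the heavy chains H2-K1 and H2-D1, the light chain B2m, the peptide transporter subunits Tap1 and Tap2, the loading chaperone Tapbp, the immunoproteasome subunits Psmb8, Psmb9 and Psmb10, and the transactivator Nlrc5. They were taken by gene symbol in the GENCODE M21 annotation, and all 10 were found among the 43432 gene IDs of each count table. The RNA came from neutrophils sorted as CD45+, CD11b+ and Ly6G high cells from digested whole uteri. All mice were 4-week-old C57BL/6 animals of 1 engineered genotype that includes Pgrcre/+, in which Cre is made from the progesterone receptor gene, so both groups share it. The normoxia group (3 libraries) lived in ambient air, and the hyperoxia group (3 libraries) in a chamber at 60% oxygen from postnatal day 18 to day 28. The labels do not say whether a library came from 1 animal or several. The p-values therefore only set the group difference against the spread of these libraries, which may be technical in part.

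MHC class I molecules display peptides from the inside of a cell to CD8 T cells and to NK cell receptors, and nearly all nucleated cells carry them. Proteasomes cut proteins into peptides, and when inflammatory signals such as interferon gamma act on a cell, the subunits Psmb8, Psmb9 and Psmb10 can replace the standard catalytic subunits Psmb5, Psmb6 and Psmb7 to form the immunoproteasome. The Tap1 and Tap2 transporter moves peptides into the endoplasmic reticulum, where Tapbp, also named tapasin, holds the empty class I molecule until it is loaded. Nlrc5 acts at class I promoters in much the same way as Ciita acts at class II promoters, through shared X and Y boxes bound by the RFX, CREB and NF-Y factors.

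Most of these genes lie together in the mouse MHC on chromosome 17 (GRCm38). Psmb9 (34181987 to 34187764) and Tap1 (34187553 to 34197225) run in opposite directions and share 212 bases of exon at their start sites. Psmb8 (34197721 to 34201454) begins 495 bases beyond Tap1, and Tap2 (34203527 to 34216321) 2072 bases beyond Psmb8. Tapbp (33915899 to 33929292) and H2-K1 (33996017 to 34000347) lie on one side of this group and H2-D1 (35262730 to 35267499) on the other. B2m is on chromosome 2 (122147686 to 122153083), and Psmb10 (105935735 to 105938444) and Nlrc5 (94434356 to 94527272) are on chromosome 8. All 10 are annotated as protein-coding.

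Promoter sequence is shown for the class I chains, whose RNAs are the most abundant of the 10 with the X2 and Y box cores matched in H2-K1 and H2-D1 and the Y box core alone in B2m. The sequences are RefSeq's for GRCm38.p6, where 8 of the 10 genes had a window of 250 bases before to 50 bases after a start site, and they are written 5′ to 3′ along each gene's own strand. Capitals mark letters matched on either strand by a search for a kappa B core (GGGA and CC with any 4 bases between), an X2 box core (TGACGC or TGACGT), a Y box core (CCAAT, which reads ATTGG on the other strand), an interferon-stimulated response element core (GAAA repeated after any 2 bases) or a gamma activated sequence core (TTCNNNGAA); matches of the kappa B core on opposite strands overlap by all but 1 base in these genes. H2-K1 is from chr17:34000344-34000468 on the minus strand, H2-D1 from chr17:35262913-35263037 and B2m from chr2:122147538-122147650, both on the plus strand.
H2-K1: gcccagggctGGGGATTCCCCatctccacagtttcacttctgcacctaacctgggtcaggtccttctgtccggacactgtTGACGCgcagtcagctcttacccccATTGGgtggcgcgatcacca
H2-D1: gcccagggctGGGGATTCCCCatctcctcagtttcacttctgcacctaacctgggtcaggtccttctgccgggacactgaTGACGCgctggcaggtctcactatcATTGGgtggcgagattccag
B2m: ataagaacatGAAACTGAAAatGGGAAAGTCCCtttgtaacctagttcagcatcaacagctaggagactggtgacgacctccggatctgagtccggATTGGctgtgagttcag

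The H2-K1 and H2-D1 stretches were identical at 109 of 125 positions (87.2%). In both, the X2 box core began 70 bases after the first kappa B match, and the first Y box core 25 bases after the X2 box core. A second Y box core, beyond the stretches printed, began 24 bases after the first in H2-K1 and 23 bases after it in H2-D1. In B2m the Y box core began 74 bases after the first kappa B match, and a response element core preceded that match by 12 bases. Among all 32851 mouse promoter windows of this length, 20.7% held the kappa B core, 7.40% the X2 core TGACGC, 7.51% TGACGT, 37.4% the Y box core, 3.44% the response element core and 8.30% the gamma activated sequence core. Among the 8 genes with a window, the last of these was matched in Psmb8 alone and the response element core in B2m alone. Tap2 and Nlrc5 had no window and were not searched. The windows of Tap1 and Psmb9 shared 275 bases, and the Y box core matched in each was the same site, read on opposite strands. A match is a description of letters and not a bound site. The search allowed no mismatched letter in a core, so a gene without a match may still hold a close variant.

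The 6 libraries held 38683293 to 61715617 counts, and all 10 genes passed the filter on low counts that left 12908 genes for testing. The labelled cell type was present in every library, by the alarmin gene S100a8 and the sort marker Ly6g. S100a8 stood between 13229.6 and 44925 CPM (a gene's counts relative to its library's total, scaled by TMM to make libraries comparable). Ly6g stood between 38.9 and 351 CPM. All 15 neutrophil markers passed the filter, which does not require counts in every library. Markers of other cell types differed in part between the groups. The summed level of 16 monocyte and macrophage markers ran from 1421 to 1525 CPM in normoxia and from 1939.8 to 3079 CPM in hyperoxia, and 10 endothelial markers summed to between 9.92 and 15.9 CPM in normoxia and between 28.9 and 70.4 CPM in hyperoxia. Smooth muscle markers summed to between 16.2 and 23.3 CPM in normoxia and between 25.1 and 54.4 CPM in hyperoxia. Stromal and fibroblast markers overlapped, at 25.2 to 78.5 CPM in normoxia and 49.5 to 339 CPM in hyperoxia. Epithelial markers also overlapped, at 81.6 to 177 CPM in normoxia and 17.2 to 234 CPM in hyperoxia. The sum of 10 mast cell, eosinophil and basophil markers was lower in every hyperoxia library, at 109 to 184 CPM in normoxia and 41.5 to 102 CPM in hyperoxia. Only 3 of these 10 genes passed the filter: Siglecf and Ccr3, with lower estimates in hyperoxia, and Kit, with a higher one. Of these lists, 1 gene, the eosinophil gene Epx, was at 0 counts in all libraries, and none of the macrophage or endothelial markers was at 0 counts in all libraries. In bulk RNA of sorted cells, more cells of another type and more RNA per cell cannot be told apart. Hyperoxia replicate 2 stood apart in part, with the highest summed neutrophil markers (119175 CPM against 35719.9 to 66108 CPM in the other libraries) and the highest B cell markers (429 CPM against 31.9 to 62.3 CPM).

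None of the class I presentation genes was called between the groups. The 10 genes together took 1.47%, 1.40% and 1.47% of all counts in the normoxia libraries and 1.44%, 1.46% and 1.47% in the hyperoxia libraries, a sum made up mostly of H2-K1, H2-D1 and B2m, which took 1.26% to 1.33%. Of the 10, 6 had a log2 difference above 0 and 4 below, with a median of 0.03 beside 0.04 over all genes tested. edgeR's quasi-likelihood test called 0 of 10 at an adjusted p of 0.05, where it called 0% of all genes, and 0 of 10 had an unadjusted p under 0.05, where 13.0% of all genes did. DESeq2 called 0 of 10 (4.06% of all genes), limma-voom 0 of 10 (0% of all genes) and limma-voom with sample quality weights 0 of 10 (0.279% of all genes). The groups overlapped for all 10 genes, while they did not overlap for 19.9% of all genes tested.

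**Figure D1:**
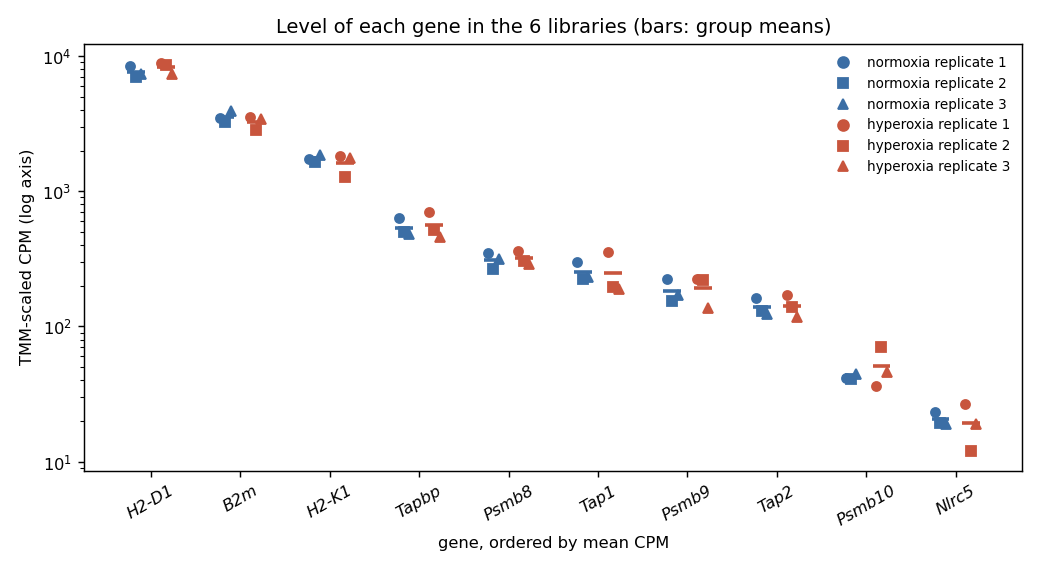
TMM-scaled CPM of the 10 genes (x axis, ordered by mean CPM; y axis, log scale) in the 3 normoxia libraries (blue) and the 3 hyperoxia libraries (red), with a point for each library and a bar for each group mean. The groups overlap for all 10 genes, and hyperoxia replicate 2 (red square) is highest for Psmb10 at 70.5 CPM and lowest for Nlrc5 at 11.9 CPM.

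Neither class I heavy chain was called. H2-D1 had values of 8459.9, 6967 and 7411 CPM under normoxia and 8839, 8552 and 7389 CPM under hyperoxia, with overlap between the groups. Its mean of 8260.2 ± 768 CPM in hyperoxia against 7613 ± 767 CPM in normoxia (SD, n = 3 each) was a log2 difference of 0.12 ± 0.22 (SE), with a 95% interval from -0.39 to 0.63. H2-D1 ranked number 15 of all genes by mean CPM. H2-K1 stood at 1739, 1648 and 1863 CPM in normoxia and at 1822, 1265 and 1751 CPM in hyperoxia, where replicate 2 was the lowest of all 6 libraries and the other hyperoxia libraries lay within the normoxia range. The H2-K1 log2 difference was -0.12 ± 0.23 (SE), with a 95% interval from -0.64 to 0.41, and without hyperoxia replicate 2 it was 0.05. Reads of these related genes may be partly exchanged: 8.79% of the 50-base words of the longest H2-K1 transcript and 14.3% of those of H2-D1 also occur in other genes, most often H2-D1 and H2-Q1 respectively, and at 100 bases the shares were 0% and 4.64%.

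B2m, the light chain with which class I heavy chains pair, stood at 3496, 3264 and 3954 CPM in normoxia and at 3543, 2823 and 3443 CPM in hyperoxia. The groups overlapped, with hyperoxia replicate 2 again the lowest library. The log2 difference was -0.13 ± 0.22 (SE), with a 95% interval from -0.63 to 0.38, and no 50-base word of its transcript occurred in another gene.

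On the RPKM scale (TMM-scaled CPM per kilobase of union exon length), which allows levels of different genes to be compared, B2m was highest at 3977 ± 431 and H2-D1 next at 3077 ± 299.6 (SD over the 6 libraries). These 2 genes overlapped in range, with B2m above H2-D1 in 5 of 6 libraries. H2-K1 followed at 572 ± 73.8 RPKM, 5.38-fold below H2-D1, Tapbp at 151 ± 27.0 and Psmb8 at 93.2 ± 10.9, and each of these was separated from its neighbours in all 6 libraries. Psmb9 (51.6 ± 11.0), Tap1 (45.6 ± 12.0) and Tap2 (37.2 ± 5.78) each overlapped the next in this order, which ran on to Psmb10 (27.3 ± 7.18). Nlrc5 was the lowest by far at 2.34 ± 0.587 RPKM, and Psmb10 lay 11.7-fold above it. Part of this order rests on the length used: per kilobase of the longest protein-coding transcript, a length chosen after the data were seen, Psmb8 (193 ± 22.7) and Tapbp (190 ± 33.8) overlapped, each above the other in 3 of 6 libraries. On that length Psmb9 (140 ± 29.7) was above Tap1 (84.5 ± 22.2) in 6 of 6 libraries, and H2-K1 lay 3.64-fold below H2-D1.

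Within a library, ratios of reads per kilobase need no scaling factor, and they were compared by an exact two-sided permutation test over the 6 libraries, whose smallest possible p is 0.1. The H2-K1 to B2m ratio was the steadiest, at 0.146, 0.148 and 0.138 in normoxia and 0.150, 0.131 and 0.149 in hyperoxia. Its log2 difference of -0.0049 had an exact p of 1. The H2-D1 to B2m ratio was 0.807, 0.712 and 0.625 in normoxia and 0.832, 1.01 and 0.716 in hyperoxia, a log2 difference of 0.25 with an exact permutation p of 0.2. Both ratios overlapped between the groups, and adjusted over the 5 ratios fixed for testing each p was 1. Hyperoxia replicate 2 had the highest H2-D1 to H2-K1 ratio, 7.70 against 4.53 to 5.54 in the other libraries, a ratio chosen after its values were seen.

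The transporter and its chaperone were high in 1 library of each group. Tap1, which forms the transporter with Tap2, stood at 302, 223 and 231 CPM in normoxia and at 355, 195 and 189.7 CPM in hyperoxia. Hyperoxia replicate 1 was thus the highest of all libraries, and the other hyperoxia libraries were the lowest. The Tap1 log2 difference was -0.03 ± 0.29 (SE), with a 95% interval from -0.70 to 0.64. Tap2 stood at 164, 130.1 and 124 CPM in normoxia and at 171, 138 and 117 CPM in hyperoxia, a log2 difference of 0.03 ± 0.22 (SE) with a 95% interval from -0.48 to 0.54. Tapbp stood at 634, 497 and 481 CPM in normoxia and at 707, 516 and 463 CPM in hyperoxia, a log2 difference of 0.06 ± 0.24 (SE) with a 95% interval from -0.49 to 0.62. For all 3 genes hyperoxia replicate 1 was the highest library, normoxia replicate 1 the second highest and hyperoxia replicate 3 the lowest. Reads of Tap1 and Psmb9 cannot be told apart where their exons overlap if strand was not used in counting, and the same holds for 24.9% of the exon bases of Tapbp, which overlap Gm19412 on the other strand, a gene with at most 12 counts in a library. Antisense genes with at most 13 counts in a library likewise overlap 14.7% of the exon bases of Psmb8 and 14.1% and 4.36% of those of Tap2. Tapbp also shares 4.11% of its exon bases with Zbtb22 on the same strand, a gene with 716 to 1271 counts.

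Immunoproteasome subunits were likewise not called. Psmb8, the chymotrypsin-like subunit also named LMP7, stood at 350.2, 268 and 317 CPM in normoxia and at 365, 303 and 288 CPM in hyperoxia, a log2 difference of 0.03 ± 0.21 (SE) with a 95% interval from -0.45 to 0.52. Psmb9, also named LMP2, stood at 226, 153 and 172 CPM in normoxia and at 224, 222 and 136 CPM in hyperoxia, a log2 difference of 0.08 ± 0.27 (SE) with a 95% interval from -0.53 to 0.69. In both genes the groups covered much the same range. Psmb10, also named MECL-1, stood at 41.6, 40.9 and 44.4 CPM in normoxia and at 36.0, 70.5 and 45.8 CPM in hyperoxia. Its hyperoxia libraries thus included the lowest and the highest of all 6, and the SD was 17.8 CPM in hyperoxia against 1.88 CPM in normoxia (n = 3 each). The log2 difference of Psmb10, 0.26 ± 0.26 (SE), was the largest of the 10 genes, with a 95% interval from -0.33 to 0.86, an edgeR adjusted p of 0.719 and a DESeq2 adjusted p of 0.786. Without hyperoxia replicate 2 the Psmb10 log2 difference was -0.03.

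Each immunoproteasome subunit was set against the standard subunit it replaces. Psmb8 averaged 92.2 ± 12.3 RPKM in normoxia and 94.2 ± 12.0 RPKM in hyperoxia, and its counterpart Psmb5 22.9 ± 1.94 and 24.2 ± 6.89 RPKM (SD, n = 3 each). The Psmb8 to Psmb5 ratio was 4.97, 3.42 and 3.79 in normoxia and 6.48, 2.97 and 3.30 in hyperoxia, so the immunoproteasome subunit exceeded the standard one in 6 of 6 libraries. Its log2 difference between groups was -0.0068 with an exact permutation p of 1. For Psmb9 and Psmb6 the ratio was 2.42, 1.41 and 1.43 in normoxia and 2.35, 1.50 and 0.864 in hyperoxia, a log2 difference of -0.23 with an exact permutation p of 0.9. Hyperoxia replicate 3 was the 1 library in which the standard subunit Psmb6 was above Psmb9. Per kilobase of the longest transcript the Psmb8 to Psmb5 ratio was again above 1 in 6 of 6 libraries, and the Psmb9 to Psmb6 ratio in 5 of 6. The Psmb10 to Psmb7 ratio was 2.18, 2.05 and 1.93 in normoxia and 2.05, 3.56 and 2.13 in hyperoxia, a log2 difference of 0.29 with an exact permutation p of 0.4. Its level turned on the length: per kilobase of the longest transcript it was 0.849 to 0.960 in 5 libraries and 1.57 in hyperoxia replicate 2, with the same differences between libraries. Each of these p-values adjusted over the 5 ratios was 1, and all 3 ratios overlapped between the groups.

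Tap1 and Psmb9, which start from the same stretch of DNA, had a similar ratio in 5 of 6 libraries. Per kilobase of union exon, Psmb9 was 1.12, 1.03 and 1.11 times Tap1 in normoxia and 0.945, 1.70 and 1.07 times Tap1 in hyperoxia, and per kilobase of the longest transcript 1.38 to 2.48 times Tap1. Hyperoxia replicate 2 stood above the rest here, with Psmb9 at 222 CPM and Tap1 at 195 CPM. The groups overlapped, with a log2 difference of 0.14 and an exact permutation p of 0.9, in a ratio chosen after its values were seen.

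**Figure D2:**
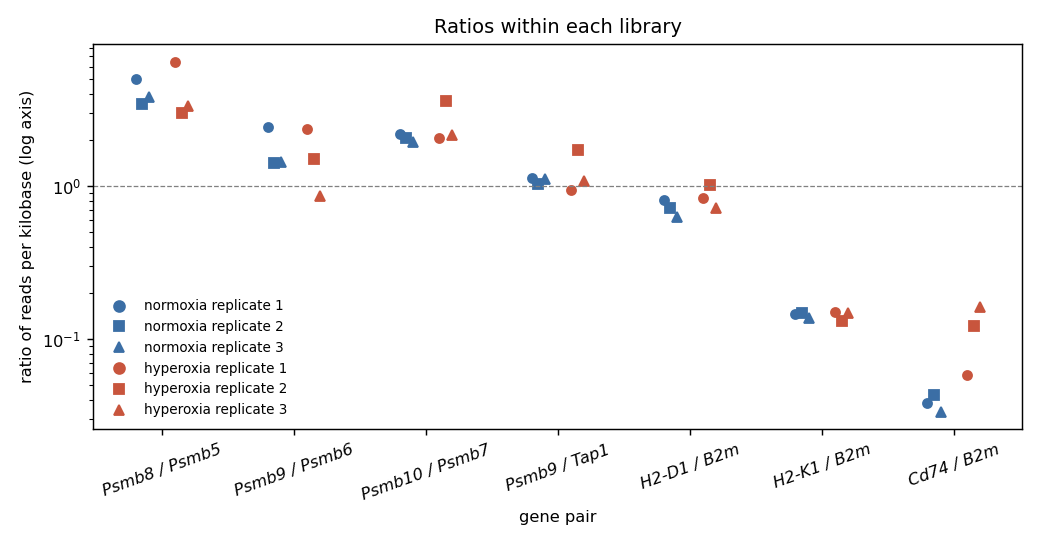
Ratios of reads per kilobase (y axis, log scale) for 7 gene pairs (x axis) in each of the 3 normoxia libraries (blue) and 3 hyperoxia libraries (red); the dashed line marks a ratio of 1. Psmb8 exceeds Psmb5 in all 6 libraries (2.97 to 6.48), and of the pairs shown only the class II pair, Cd74 to B2m, has groups that do not overlap.

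Nlrc5, the class I transactivator, was detected in every library at a low level. It stood at 23.3, 19.3 and 19.0 CPM in normoxia and at 26.8, 11.9 and 19.0 CPM in hyperoxia, so that the hyperoxia libraries again spanned the range of the normoxia libraries. The Nlrc5 log2 difference was -0.10 ± 0.29 (SE), with a 95% interval from -0.77 to 0.57. Without hyperoxia replicate 2, the lowest library, it was 0.17.

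The SE of the 10 log2 differences ran from 0.21 to 0.29, and no 95% interval extended beyond 1.82-fold in either direction. The largest absolute log2 difference among the 10, 0.26, was above that of 42.6% of all genes tested, and the median absolute difference was 0.09 against 0.33 over all genes tested. In 8 of the 10 genes the SD of log2 CPM was larger in hyperoxia than in normoxia (median 0.30 against 0.18), as it was for 79.4% of all genes tested (median 0.47 against 0.24).

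**Figure D3:**
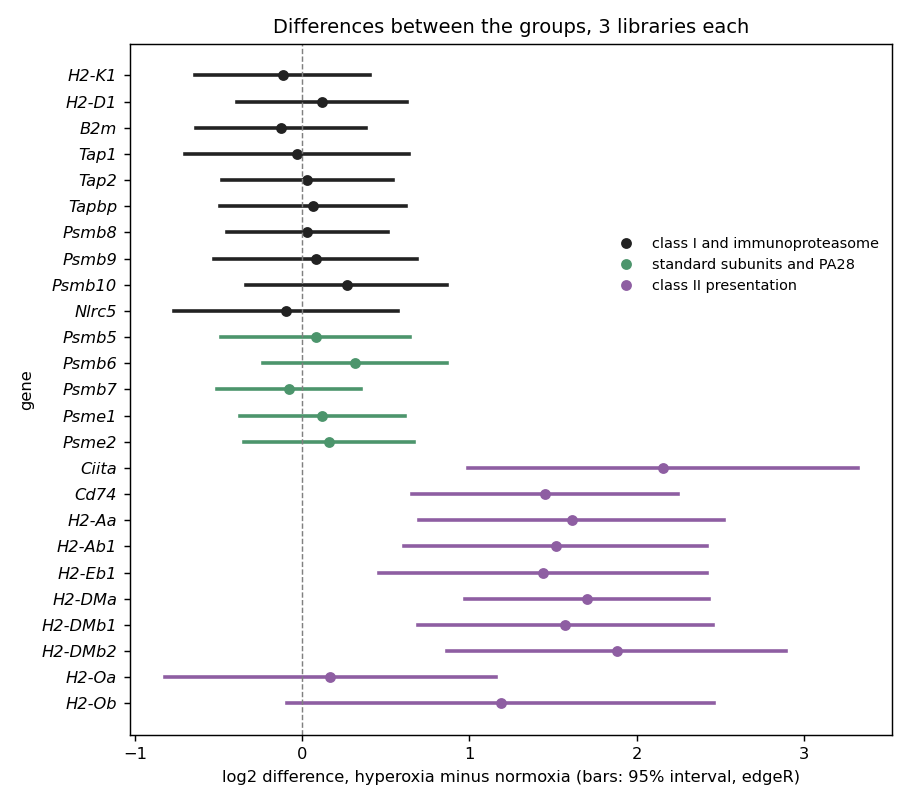
Log2 difference between hyperoxia and normoxia (x axis) for the 10 class I and immunoproteasome genes (black), the standard catalytic subunits and the PA28 activator (green) and class II presentation genes (purple), with 95% intervals from edgeR and 3 libraries in each group. Every black and green interval includes 0, and of the class II genes those of H2-Oa and H2-Ob do as well.

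The order of the libraries was shared by part of the genes. The mean of the 10 standardised log2 CPM profiles was 0.62, -0.57 and -0.06 in the normoxia libraries and 0.89, -0.34 and -0.55 in the hyperoxia libraries, so replicate 1 of each group was high and the other libraries were low. Over these 6 libraries Tap2 and Tapbp had a Pearson r of 0.98, H2-K1 and B2m 0.94, and Tap1 and Tapbp 0.94. Psmb10 went the other way, with an r of -0.96 with Nlrc5 and -0.89 with H2-K1. The points of all these correlations share library, depth and scaling, and no test was made. Of 5157 other genes whose mean log2 CPM was 3 or more, the 5 whose profile was most like the mean of the 10 were Zc3hav1 (r of 0.99), which encodes a zinc finger antiviral protein, Dop1b (0.99), Sorl1 (0.98), a sorting receptor gene, Acap2 (0.98) and Osbpl9 (0.98).

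No other proteasome gene on the lists examined was called by edgeR or DESeq2. Of 14 genes for standard subunits of the core particle, 13 had a log2 difference above 0, where 53.7% of all genes did, with a median of 0.10. Of the 14, 0 were called by edgeR (0% of all genes) or DESeq2 (4.06% of all genes). An unadjusted p under 0.05 in edgeR was reached by 0 of them, where 13.0% of all genes had one. The lowest p values among them belonged to Psma5 (log2 difference 0.44 ± 0.22, SE), Psma6 (0.28 ± 0.21) and Psmb6 (0.32 ± 0.24). Psma5 was also the 1 gene of the 14 whose groups did not overlap, where 9.56% of all genes had every hyperoxia library above every normoxia library. Psme1 and Psme2, the subunits of the PA28 activator that interferon gamma induces together with the immunoproteasome, had log2 differences of 0.12 ± 0.21 and 0.16 ± 0.22 (SE). Of the 10 activator, inhibitor and assembly genes 0 were called by edgeR (0% of all genes) or DESeq2 (4.06% of all genes). An unadjusted p under 0.05 in edgeR was again reached by 0 of them, against 13.0% of all genes. Pomp, which assembles new proteasomes, had the lowest p of these 10, at 118 CPM in hyperoxia replicate 2 and 58.0 to 71.7 CPM in the other libraries.

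Among 14 genes for peptide loading and trimming, 0 were called by edgeR (0% of all genes) or DESeq2 (4.06% of all genes). Blmh, a cytosolic peptidase gene (log2 difference 0.74 ± 0.31, SE), was the 1 gene with an unadjusted p under 0.05 in edgeR, where 13.0% of all genes had one. Pdia3, the disulfide isomerase gene of the loading complex, stood at 50.3, 53.1 and 58.2 CPM in normoxia and at 60.7, 75.9 and 78.4 CPM in hyperoxia, a difference of 0.41 ± 0.19 with an edgeR adjusted p of 0.41. Tpp2, another peptidase gene, had a difference of -0.39 ± 0.19 and an edgeR adjusted p of 0.417.

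Other class I heavy chain and class I-like genes were more mixed. Of 27 genes 24 were matched and 17 tested, 12 of them above 0 and 5 below, with a median log2 difference of 0.37. The summed level of the 24 was 1326, 1125 and 1196 CPM in normoxia and 1221, 935 and 1087 CPM in hyperoxia, with overlap between the groups. Here 0 were called by edgeR, 4 were higher at an unadjusted p under 0.05, where 9.10% of all genes were, and DESeq2 called 2 as higher, where it called 3.65% of all genes. H2-M3, a class I-like gene whose product binds formylated peptides, stood at 5.80, 4.90 and 4.75 CPM in normoxia and at 9.56, 19.4 and 12.2 CPM in hyperoxia. Every hyperoxia library of H2-M3 was above every normoxia library, the log2 difference was 1.42 ± 0.29 (SE), the edgeR adjusted p was 0.132 and the DESeq2 adjusted p 0.00163. Fcgrt, the neonatal Fc receptor, which also pairs with B2m, stood at 1.73, 2.31 and 2.93 CPM in normoxia and at 4.12, 13.5 and 20.3 CPM in hyperoxia, again with no overlap. Its log2 difference was 2.44 ± 0.53 (SE), with an edgeR adjusted p of 0.14 and a DESeq2 adjusted p of 1.73e-04. H2-Q6 (1.04 ± 0.31) and Hfe (1.31 ± 0.42), the hemochromatosis gene, which was added after its value was seen, were the other 2; reads of H2-Q6 are uncertain because H2-Q genes are near-identical. The groups did not overlap for 4 genes higher in hyperoxia (9.56% of all genes) and for 1 lower, H2-K2 (10.3% of all genes). H2-K2, added after its value was seen, stood at 148, 121 and 124 CPM in normoxia and at 115, 57.2 and 87.5 CPM in hyperoxia. Its log2 difference was -0.60 ± 0.27 (SE), with an edgeR adjusted p of 0.401. Summed macrophage marker levels were higher in every hyperoxia library, as given above, and their part in the differences of these genes was not tested.

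Regulators of class I genes and of interferon gamma signalling leaned the other way. Of 20 genes 16 had a log2 difference below 0, with a median of -0.16. edgeR called 0 of them, 4 were lower at an unadjusted p under 0.05 (3.91% of all genes), DESeq2 called 1 as lower (0.411% of all genes), and for 7 every hyperoxia library was below every normoxia library (10.3% of all genes). Irf1, a transcription factor that interferon gamma induces and that acts on class I and immunoproteasome promoters, stood at 942, 836 and 1082 CPM in normoxia and at 639, 635 and 718 CPM in hyperoxia. The Irf1 groups did not overlap, and its log2 difference was -0.52 ± 0.21 (SE), with an edgeR adjusted p of 0.354 and a DESeq2 adjusted p of 0.221. Socs1, an inhibitor of interferon gamma receptor signalling, fell from 74.0, 65.4 and 93.7 CPM to 39.6, 31.4 and 29.5 CPM by DESeq2's test. It had a log2 difference of -1.21 ± 0.22 (SE), an edgeR adjusted p of 0.106 and a DESeq2 adjusted p of 8.26e-04. Rfxap and Nfyb, which encode subunits of the RFX and NF-Y factors of the X and Y boxes, had differences of -0.49 ± 0.19 and -0.47 ± 0.18 (SE), each with no overlap and an edgeR adjusted p of 0.349 and 0.347. Rfx5, another RFX subunit, was at 0.377 to 0.632 CPM in all libraries, with a difference of 0.31 ± 0.44. The count of 4 was 1 without any 1 of normoxia replicates 1, 2 or 3.

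Neither interferon gamma itself nor most of its response genes separated the groups. Ifng had 7, 11 and 15 counts in normoxia and 5, 28 and 162 counts in hyperoxia, so replicate 3 of hyperoxia held most of them. It also had the highest summed T and NK cell markers, 38.6 CPM against 6.65 to 19.4 CPM in the other libraries, whose part in the Ifng counts was not tested. That library was also the lowest of the 6 for Tap1, Tap2, Tapbp and Psmb9. The summed level of 15 matched interferon gamma response genes was 2664, 1784 and 2045 CPM in normoxia and 3239, 1542 and 1757 CPM in hyperoxia, highest in replicate 1 of each group as for Tap1, Tap2 and Tapbp. Of the 14 tested, 0 were called by edgeR. Iigp1 (log2 difference 2.57 ± 0.53, SE), at most 3.60 CPM, was the 1 gene that DESeq2 called higher, where it called 3.65% of all genes. Irgm2 (-0.85 ± 0.35) was the 1 gene lower at an unadjusted p under 0.05 in edgeR, where 3.91% of all genes were.

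Class II presentation genes, which serve CD4 T cells, were in most cases higher in hyperoxia by DESeq2's test. All 10 genes tested had log2 differences above 0 (53.7% of all genes), with a median of 1.54. edgeR called 0, 8 were higher at an unadjusted p under 0.05 (9.10% of all genes), and DESeq2 called 8 as higher (3.65% of all genes). Cd74, the invariant chain of class II, stood at 260.5, 273 and 258 CPM in normoxia and at 401, 666 and 1095 CPM in hyperoxia, a log2 difference of 1.45 ± 0.35 (SE), with an edgeR adjusted p of 0.156 and a DESeq2 adjusted p of 0.00235. Ciita, the class II counterpart of Nlrc5, stood at 0.187, 0.443 and 0.334 CPM in normoxia and at 0.835, 1.85 and 1.64 CPM in hyperoxia, a log2 difference of 2.16 ± 0.51 (SE), with an edgeR adjusted p of 0.153 and a DESeq2 adjusted p of 0.00648. The ratio of Cd74 to B2m per kilobase, a pair chosen after both values were seen and so no test of a difference between the pathways, was 0.0382, 0.0429 and 0.0334 in normoxia and 0.0580, 0.121 and 0.163 in hyperoxia. Macrophage and dendritic cell markers moved with the class II genes, with summed dendritic cell markers at 29.5 to 33.3 CPM in normoxia and 36.9 to 83.1 CPM in hyperoxia, and their part in these differences was not tested.

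**Figure D4:**
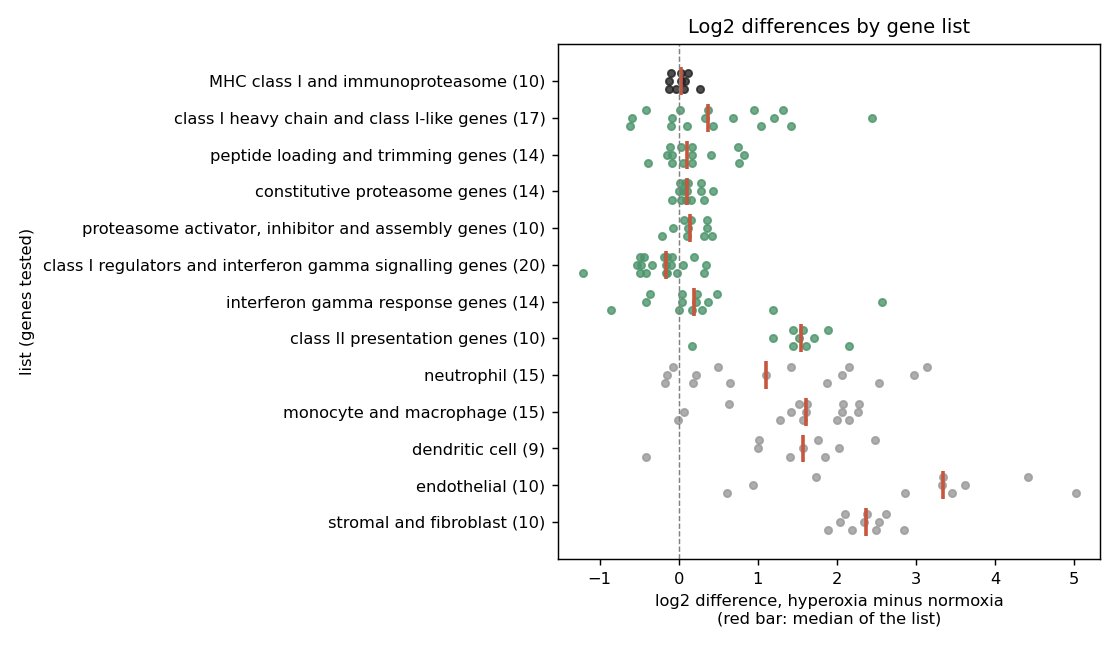
Log2 difference between hyperoxia and normoxia (x axis) of each tested gene in 13 lists (y axis, with the number tested), for the class I and immunoproteasome genes (black), related pathway lists (green) and cell type markers (grey), with a red bar at each list's median. The 10 class I and immunoproteasome genes lie between -0.13 and 0.26, while the class II median is 1.54 and the macrophage median 1.61.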

How the data were processed

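RNA-seq counts were analysed for 6 libraries of sorted neutrophils, 3 per housing group. Groups follow the housing condition in the labels, and replicate numbers, given in accession order, are names only. The authors deposited raw counts per Ensembl gene ID, 1 table per library, not normalized. STAR 2.4.2a, DESeq2 1.16.1 and the build GRCm38 come from what is listed per the submitters' processing notes. Of the counting program, strand setting, read length and annotation, each is not given in the sources used here. Of 43432 IDs, 42548 matched GENCODE M21.

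Counts were tested with edgeR 4.0.16 in R 4.3.3: filterByExpr, TMM scaling, and a robust two-sided quasi-likelihood test, its p-values adjusted by Benjamini-Hochberg across the 12908 genes kept. SEs derive from the F statistic, and 95% intervals use the t quantile at the fit's total degrees of freedom. CPM are counts over TMM-scaled library sizes; log2 CPM used a prior count of 2. A floor of 3 counts is 0.0486 to 0.0776 CPM. Replicates differed beyond sampling noise (chi-square per degree of freedom of 33.2 to 803). Alternatives were DESeq2 1.42.0, limma-voom (limma 3.58.1) with and without quality weights, other scaling factors and filters, and omitting 1 library at a time. Scripts were tested on simulated data. All 10 genes are named, with the 3 lowest p values of each list and genes fixed by name. Part of the genotype and 1 of those genes are not reported here. Of each list 3 genes could be named, so others singled out for a count were chosen after their values were seen. The 10 genes and all lists were chosen with earlier results of these data known.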

Additional observations from a re-analysis of the deposited data

How the results depend on the processing

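None of the 10 genes was called under any of 14 alternatives (140 values, lowest adjusted p of 0.322), and 17 of these values had the opposite sign. By scaling or test, Tap1 was at 0.0147 with upper quartile factors and 0.0030 with limma-voom and sample quality weights. Leaving out 1 library gave the others: log2 differences then ranged from -0.19 to 0.0491 for H2-K1, -0.19 to 0.0166 for B2m, -0.36 to 0.19 for Tap1, -0.0898 to 0.23 for Tap2, -0.10 to 0.27 for Tapbp, -0.0738 to 0.19 for Psmb8, -0.0414 to 0.33 for Psmb9, -0.0305 to 0.50 for Psmb10 and -0.39 to 0.17 for Nlrc5. H2-D1 stayed above 0, from 0.05 to 0.27, over these 14 alternatives. With 1 library left out, the log2 difference of the Psmb8 to Psmb5 ratio ranged from -0.36 to 0.21. That of Psmb9 to Psmb6 ranged from -0.58 to 0.15, and that of Psmb10 to Psmb7 from 0.03 to 0.43. For H2-K1 to B2m the range was -0.041 to 0.059, and for H2-D1 to B2m 0.12 to 0.37. The exact permutation test used for these ratios cannot go below 0.1 with 3 against 3 libraries, so its p-values say nothing about stability.

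Over all genes, edgeR called 0 genes in either direction (1680 had an unadjusted p under 0.05), DESeq2 461 as higher and 52 as lower, limma-voom with sample quality weights 35 and 1, and edgeR with no filter 205 and 9; leaving out 1 library gave 0 to 164 higher and 0 to 12 lower, the highest counts without hyperoxia replicate 1. The causes were not tested. No paired analysis was possible because the labels give no replicate numbers shared between the groups. Low counts per gene limit Ciita, Rfx5, Ifng and Iigp1, each under 5 CPM. The lists' counts without single libraries were added after seeing the data.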
